A study of Equus caballus with 10 samples.

Results

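The miR-10 and miR-196 families were described through eca-miR-10a, eca-miR-10b and eca-miR-196b, 3 of the 239 horse miRNAs counted in the series, which were chosen by name because their genes lie in HOX clusters. The 9 labelled small RNA libraries came from 5-EU-labelled RNA that had been recovered from recipient cells after 24 h of exposure to extracellular vesicles (EVs). EV-recipient synoviocytes from 4 horses, kept at 25% oxygen, had received EVs pooled from the chondrocytes of 8 horses, and EV-recipient chondrocytes from 5 horses, kept at 5% oxygen, had received EVs pooled from the synoviocytes of 9 horses. Donor cells had carried 5-EU, a uridine analogue that is built into new RNA and can be captured through biotin, for 48 h before each collection of medium. All cells were primary cultures from the metacarpophalangeal joint, and no recipient group went without EVs. By the study's account, EV-recipient synoviocytes were also given more EVs per volume of medium than EV-recipient chondrocytes. The recipient cell type, the EV source, the EV dose and the oxygen level changed together and cannot be told apart. The pooled EVs mean that the recipients within a group are different horses that shared 1 EV preparation.

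The tenth library is titled as a synoviocyte, while the group row of the tables and the figures of the study name it as the control that had received EVs without the label. Its GEO labels do not say so, and it entered no comparison between groups. Its values are given as those of the library with no group label.

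HOX genes give cells their position along the body axis and the limb, and fibroblasts of different body sites keep different HOX programmes in culture. In human and mouse, miR-10a lies beside HOXB4, miR-10b beside HOXD4 and miR-196b in the HOXA cluster, while miR-196a is made from the HOXB and HOXC clusters. These miRNAs act back on HOX transcripts: miR-196 directs cleavage of Hoxb8 mRNA in mouse embryos, and miR-10b represses HOXD10 in human cancer cells. The members of each pair, miR-10a with miR-10b and miR-196a with miR-196b, have near-identical mature sequences. Since reads were matched with 1 mismatch allowed, reads may have been shared within a pair, and low counts of the rarer member are uncertain.

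Total miRNA counts ran from 17151 to 436475 in EV-recipient synoviocytes and from 4891 to 444408 in EV-recipient chondrocytes, and stood at 20330 in the library with no group label. Abundances are given as deposited, in reads per 1000000 miRNA reads (RPM). A count of 3, taken as the floor, was worth 613 RPM in EV-recipient chondrocyte replicate 1, which had the lowest total, and 6.75 RPM in EV-recipient chondrocyte replicate 2, which had the highest. Replicate 1 stands apart in depth, and results that rest on it are given with and without it. Intervals are 95% Wilson intervals and, like the floors, cover counting error only. The cartilage miRNA miR-140, both arms summed, lay between 0 and 182 RPM in EV-recipient synoviocytes and between 204 and 3805 RPM in EV-recipient chondrocytes. The 204 RPM was 1 count in EV-recipient chondrocyte replicate 1 and lies under the floor of that library. A mesenchymal and fibroblast list of 6 miRNAs was led by eca-miR-21. It summed to 324029 RPM or more in every EV-recipient synoviocyte library and to 192925 RPM or more in every EV-recipient chondrocyte library. Its members did not all run the same way. eca-miR-21 ran from 267005 to 445226 RPM in EV-recipient synoviocytes and from 167200 to 266997 RPM in EV-recipient chondrocytes. For eca-miR-199a-5p the order was reversed, at 9015 to 10378 RPM against 11001 to 23912 RPM. By mean RPM, eca-miR-143, eca-miR-145 and eca-miR-214 went with eca-miR-21, and eca-miR-199a-3p went with eca-miR-199a-5p. In such bulk RNA, fewer cells or vesicles of a type and less RNA from each cannot be told apart.

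eca-miR-196b, the miRNA of the HOXA cluster, was by far the most abundant of the HOX-cluster miRNAs and ranked 23 of 239 by mean RPM in both groups. It was counted in all 10 libraries, with a lower mean in EV-recipient synoviocytes that did not pass the test. The levels were 8768, 9023, 4617 and 4548 RPM in EV-recipient synoviocytes, from 3827, 1735, 149 and 78 counts. In EV-recipient chondrocytes they were 4701, 12500, 11313, 15612 and 13802 RPM, from 23, 5555, 449, 4446 and 1361 counts. Every EV-recipient synoviocyte library lay below 4 of the 5 EV-recipient chondrocyte libraries, and EV-recipient chondrocyte replicate 1 lay between EV-recipient synoviocyte replicates 3 and 1. With its 23 counts, that replicate had an interval of 3136 to 7047 RPM, which ends below the interval of each other EV-recipient chondrocyte library, the lowest of which starts at 10319 RPM. The library with no group label stood at 10576 RPM (interval 9259 to 12077), above all 4 EV-recipient synoviocyte libraries.

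**Figure D1:**
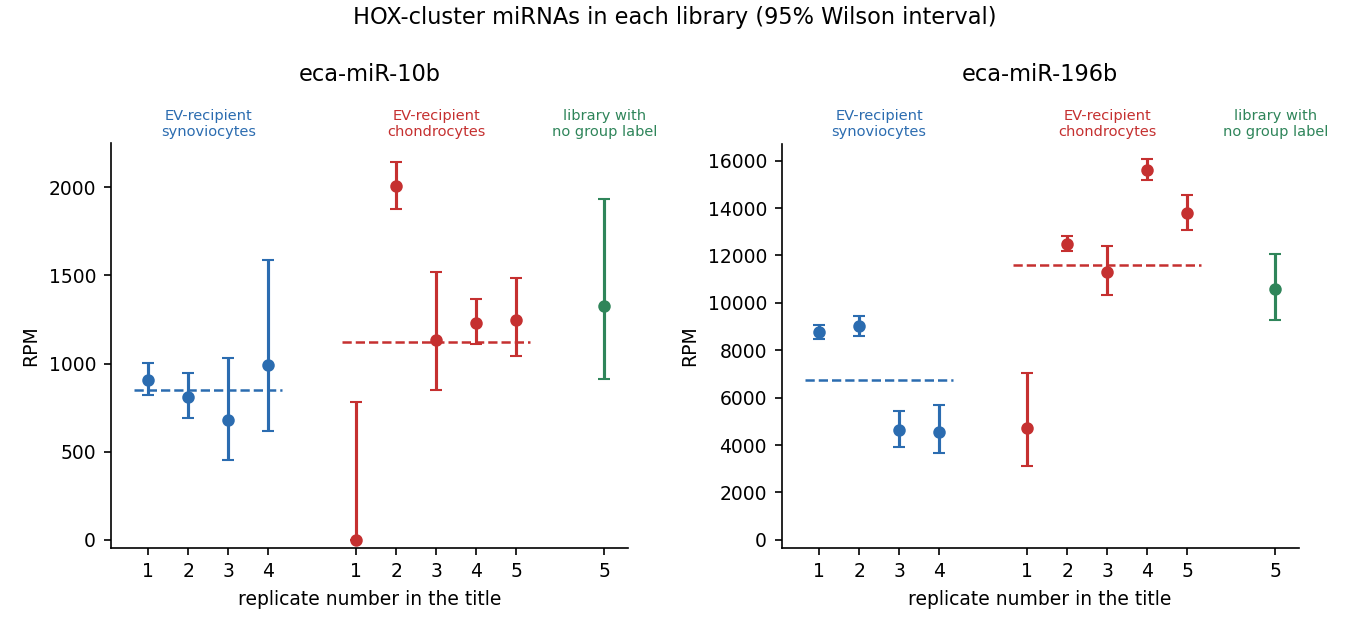
Level of eca-miR-10b (left) and eca-miR-196b (right) in RPM (vertical axis) in each library (horizontal axis, replicate numbers), with EV-recipient synoviocytes in blue, EV-recipient chondrocytes in red and the library with no group label in green. Points are single libraries, bars are 95% Wilson intervals for counting error and dashed lines are group means, 848 and 1124 RPM for eca-miR-10b and 6739 and 11586 RPM for eca-miR-196b; EV-recipient chondrocyte replicate 1 is the lowest of its group in both panels.

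The mean of eca-miR-196b was 6739 ± 2492 RPM (SD, n = 4) in EV-recipient synoviocytes and 11586 ± 4167 RPM (SD, n = 5) in EV-recipient chondrocytes. In edgeR's quasi-likelihood test over the 49 miRNAs that passed the filter of the study, its log2 fold change of synoviocytes over chondrocytes was -0.66 (standard error 0.37, adjusted p = 0.348). At an unadjusted p under 0.05 this test called 9 of the 49 (18.4%). At an adjusted p under 0.05 it called 4 (8.16%), and eca-miR-196b was in neither set. A two-sided exact permutation test on its RPM over the 9 libraries gave p = 0.0794 (adjusted p = 0.243 over the same 49), where the smallest p possible is 0.00794.

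The shallowest library decided the overlap of eca-miR-196b. Without EV-recipient chondrocyte replicate 1, an alternative taken up after the data had been seen for the overlap and the permutation test, the EV-recipient chondrocytes had a mean of 13307 ± 1843 RPM (SD, n = 4). Every EV-recipient synoviocyte library was then lower. Of the 49 miRNAs, 9 (18.4%) then had all synoviocyte libraries lower, against 5 (10.2%) with that library included. The log2 fold change became -0.87 (standard error 0.28, adjusted p = 0.0782 over 81 miRNAs, edgeR's quasi-likelihood test). It passed 0.05 before adjustment but not after it. Leaving out this library also lowered the RPM minimum of the filter, which is why 81 miRNAs were tested. In that fit 18 of 81 miRNAs (22.2%) had an unadjusted p under 0.05 and 8 (9.88%) an adjusted one. The exact permutation p was 0.0286, the smallest that 4 against 4 allow, and 0.117 after adjustment.

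The libraries low in eca-miR-196b shared other features. The 3 labelled libraries with the lowest levels, EV-recipient synoviocyte replicates 3 and 4 and EV-recipient chondrocyte replicate 1, held 32269, 17151 and 4891 miRNA counts and were 3 of the 4 shallowest labelled libraries. The fourth, EV-recipient chondrocyte replicate 3 with 39689 counts, stood at 11313 RPM. The 3 also had the highest sums over the blood list, of which 5 of 6 miRNAs were among those counted in the series. These sums were 2107 and 17025 RPM in EV-recipient synoviocyte replicates 3 and 4, against 55 and 1165 RPM in the other 2 replicates. Within EV-recipient chondrocytes they were 3679 RPM in replicate 1, from only 18 counts, and between 45.7 and 497 RPM elsewhere. EV-recipient synoviocyte replicates 3 and 4 had 68 and 292 counts of the list. The erythroid eca-miR-451 reached 10320 RPM at most in EV-recipient synoviocytes and 1022 RPM in EV-recipient chondrocytes, and the myeloid eca-miR-223 reached 217 RPM in EV-recipient synoviocytes and 2657 RPM in EV-recipient chondrocytes, in replicate 1 alone. On the same list, eca-miR-144 and eca-miR-486-5p reached 2857 and 3790 RPM in EV-recipient synoviocytes but at most 25.2 RPM in EV-recipient chondrocytes. The high sums of the 2 groups thus rested partly on different miRNAs. eca-miR-142-3p, a defining leukocyte miRNA, was at 0 in all EV-recipient chondrocyte libraries and reached 58.3 RPM at most in EV-recipient synoviocytes. The library with no group label, which entered no comparison, held 20330 counts, with eca-miR-196b at 10576 RPM and a blood-list sum of 1722 RPM. The part of depth and of blood miRNAs in the level of eca-miR-196b was not tested.

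eca-miR-10b, the miRNA of the HOXD cluster, was counted at a lower level, ranking 60 by mean RPM in EV-recipient synoviocytes and 51 in EV-recipient chondrocytes. Its 4 EV-recipient synoviocyte libraries were close to each other, at 907, 811, 682 and 991 RPM from 396, 156, 22 and 17 counts. The EV-recipient chondrocyte libraries stood at 0, 2005, 1134, 1233 and 1247 RPM, from 0, 891, 45, 351 and 123 counts. Again 4 of the 5 EV-recipient chondrocyte libraries lay above every EV-recipient synoviocyte library, and replicate 1 lay below all of them. The 0 of 4891 counts in that replicate allows a level of up to 613 RPM by the floor and 785 RPM by its interval, and the lowest of the other 8 labelled libraries had 682 RPM. The interval of EV-recipient synoviocyte replicate 4, 619 to 1587 RPM from 17 counts, spans the levels of EV-recipient chondrocyte replicates 3, 4 and 5, so that not all libraries of the 2 groups could be separated at this depth. The library with no group label had 1328 RPM from 27 counts (interval 913 to 1932), above all 4 EV-recipient synoviocyte values.

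The mean of eca-miR-10b was 848 ± 133 RPM (SD, n = 4) in EV-recipient synoviocytes and 1124 ± 719 RPM (SD, n = 5) in EV-recipient chondrocytes. It did not pass the filter of the study, a minimum of 2045 RPM in at least 2 libraries, and was tested among the 100 miRNAs kept by edgeR's filterByExpr. There its log2 fold change was -0.42 (standard error 0.78, adjusted p = 0.892, edgeR's quasi-likelihood test). This fit called 17 of 100 miRNAs (17%) at an unadjusted and 5 (5%) at an adjusted p under 0.05, and eca-miR-10b was not called. The exact permutation test on RPM gave p = 0.524. The sign of the fold rested on how the library at 0 was treated, and limma on log2(RPM + 1) turned it to 1.38 (adjusted p = 0.773).

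Without EV-recipient chondrocyte replicate 1, eca-miR-10b averaged 1405 ± 403 RPM (SD, n = 4) over the remaining EV-recipient chondrocytes, with no overlap between the groups. This was so for 12 of the 100 miRNAs (12%) in that direction, and for 6 (6%) with the library included. The log2 fold change was then -0.67 (standard error 0.47, adjusted p = 0.583 over 110 miRNAs, edgeR's quasi-likelihood test). The exact permutation p was 0.0286 (0.168 after adjustment), the smallest that 4 against 4 allow, which groups without overlap always give. For the overlap and the permutation test, leaving out that library was chosen after the data had been seen. In the fit without that library, 16 of the 110 miRNAs (14.5%) passed 0.05 before adjustment, and eca-miR-10b was not among them.

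**Figure D2:**
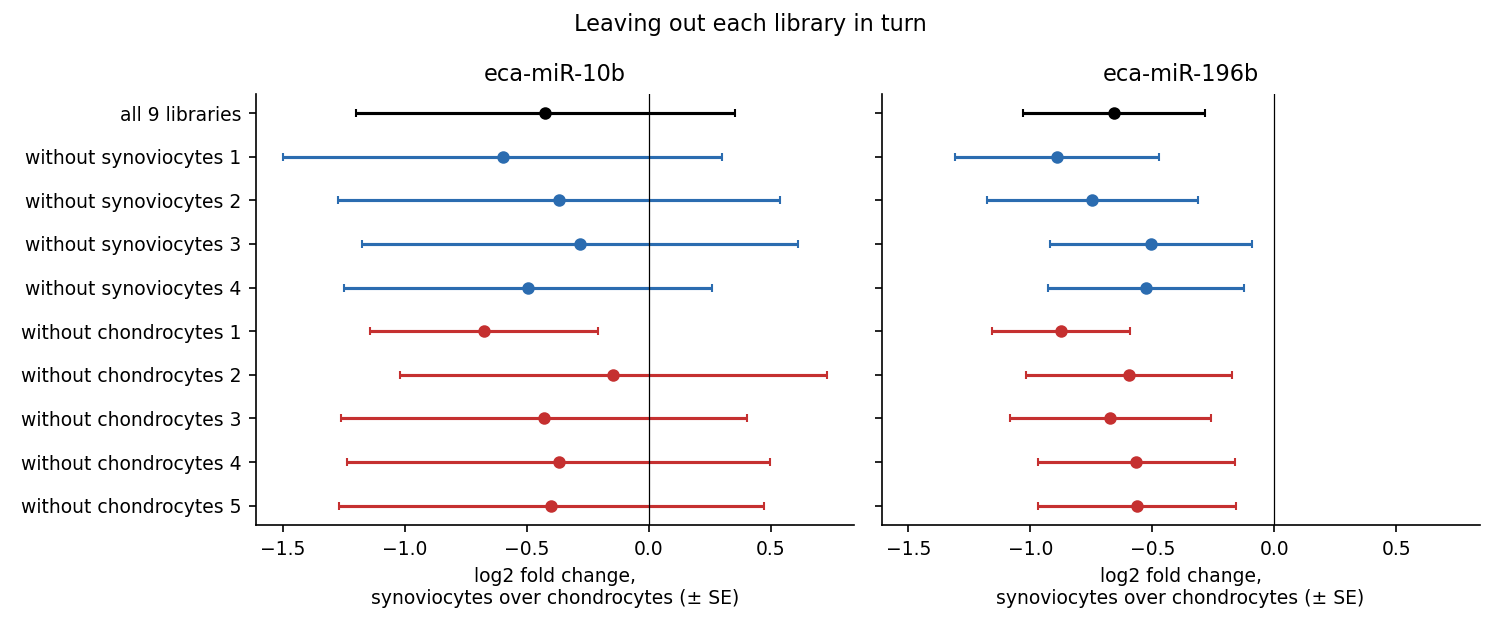
Log2 fold change of EV-recipient synoviocytes over EV-recipient chondrocytes (horizontal axis, points, with standard error as bars) for eca-miR-10b (left) and eca-miR-196b (right), from all 9 labelled libraries in black, without 1 EV-recipient synoviocyte library in blue and without 1 EV-recipient chondrocyte library in red. eca-miR-196b stays between -0.89 and -0.51 and eca-miR-10b between -0.67 and -0.14.

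eca-miR-10a, the miRNA of the HOXB cluster, was at or under the floor in every library. It had 1 count in EV-recipient synoviocyte replicate 2 and 2 counts in EV-recipient chondrocyte replicate 2, and 0 counts in the other 8 libraries. By the upper bound of the interval, the 0 of 436475 counts in EV-recipient synoviocyte replicate 1 allows up to 8.80 RPM, and the 0 of 284774 counts in EV-recipient chondrocyte replicate 4 allows up to 13.5 RPM. Over all 10 libraries eca-miR-10a summed to 3 counts, against 2028 for eca-miR-10b and 17838 for eca-miR-196b. Both libraries with eca-miR-10a counts also held many counts of eca-miR-10b, and reads of near-identical sequence cannot be told apart here. With both groups at or under the floor, no fold change is given.

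The list of other HOX-cluster miRNAs added eca-miR-196a, while miR-615 of the HOXC cluster was not among the 239 miRNAs counted in the series. eca-miR-196a passed neither filter. It had 35, 43, 0 and 0 counts in EV-recipient synoviocytes and 0, 32, 1, 26 and 2 counts in EV-recipient chondrocytes. In RPM these were 80.2, 224, 0 and 0 in EV-recipient synoviocytes and 0, 72.0, 25.2, 91.3 and 20.3 in EV-recipient chondrocytes, with overlapping groups. The library with no group label was the highest of all 10, with 18 counts or 885 RPM (interval 560 to 1399), and its interval began above the 301 RPM that ends the interval of EV-recipient synoviocyte replicate 2. EV-recipient chondrocyte replicate 1, at 0 counts, allows up to 785 RPM by its interval. In the library with no group label eca-miR-196b had 215 counts, or 1194% of the eca-miR-196a count. That proportion was 4035% or more in each of the 6 labelled libraries that held eca-miR-196a.

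Counts of the members can be set against each other within a library, where no normalization enters. For every 100 counts of eca-miR-196b, the EV-recipient synoviocyte libraries held 10.3, 8.99, 14.8 and 21.8 counts of eca-miR-10b. In the EV-recipient chondrocyte libraries the values were 0, 16.0, 10.0, 7.89 and 9.04, and in the library with no group label 12.6. The groups overlapped in this proportion, and the extremes came from the shallow EV-recipient synoviocyte replicate 4, with 17 and 78 counts, and EV-recipient chondrocyte replicate 1.

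The miR-99, miR-100 and miR-125 miRNAs are evolutionary relatives of miR-10 that lie outside the HOX clusters, and all 5 relatives on the list passed the filter of the study. None of them was called at an unadjusted p under 0.05 in that fit, where the log2 fold changes of 2 were negative and of 3 positive. That is 0 of 5 beside 9 of 49 (18.4%) over all miRNAs tested, and the median log2 fold change of the relatives was 0.0032 beside 0.061. In the filterByExpr fit 1 of 5, eca-miR-99a, passed 0.05 before adjustment and 0 after it, beside 17 of 100 (17%) before adjustment over all miRNAs tested. There the median of the relatives was -0.033 beside 0.115, so that its sign depended on the filter. In the fit over 49 miRNAs the relatives with a negative fold change were eca-miR-99a and eca-miR-100. eca-miR-99a stood at 9047, 9829, 15185 and 17258 RPM in EV-recipient synoviocytes and 4905, 37022, 33259, 41731 and 22422 RPM in EV-recipient chondrocytes. EV-recipient chondrocyte replicate 1 was again the low library of its group. On the log2 scale the fold change of eca-miR-99a was -0.996 (standard error 0.49, adjusted p = 0.293 over 49 miRNAs, edgeR's quasi-likelihood test). Without that replicate it was -1.31 (standard error 0.29, adjusted p = 0.00938 over 81 miRNAs, same edgeR test), with the RPM minimum of the filter also lowered. eca-miR-99a was then called, as were 8 of the 81 (9.88%) in all. Its groups no longer overlapped, and 9 of the 49 (18.4%) then had all synoviocyte libraries lower. eca-miR-100 stood at -0.30 on the same scale (standard error 0.24, adjusted p = 0.483, same edgeR test), with overlapping groups. eca-miR-99b had the opposite sign, at 0.89 (standard error 0.58, adjusted p = 0.379, same edgeR test), and was at 0 RPM in EV-recipient chondrocyte replicate 1. Without that replicate its fold change was 0.66 (standard error 0.32, adjusted p = 0.259 over 81 miRNAs, same edgeR test). The fold changes of members and relatives were not tested against each other.

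**Figure D3:**
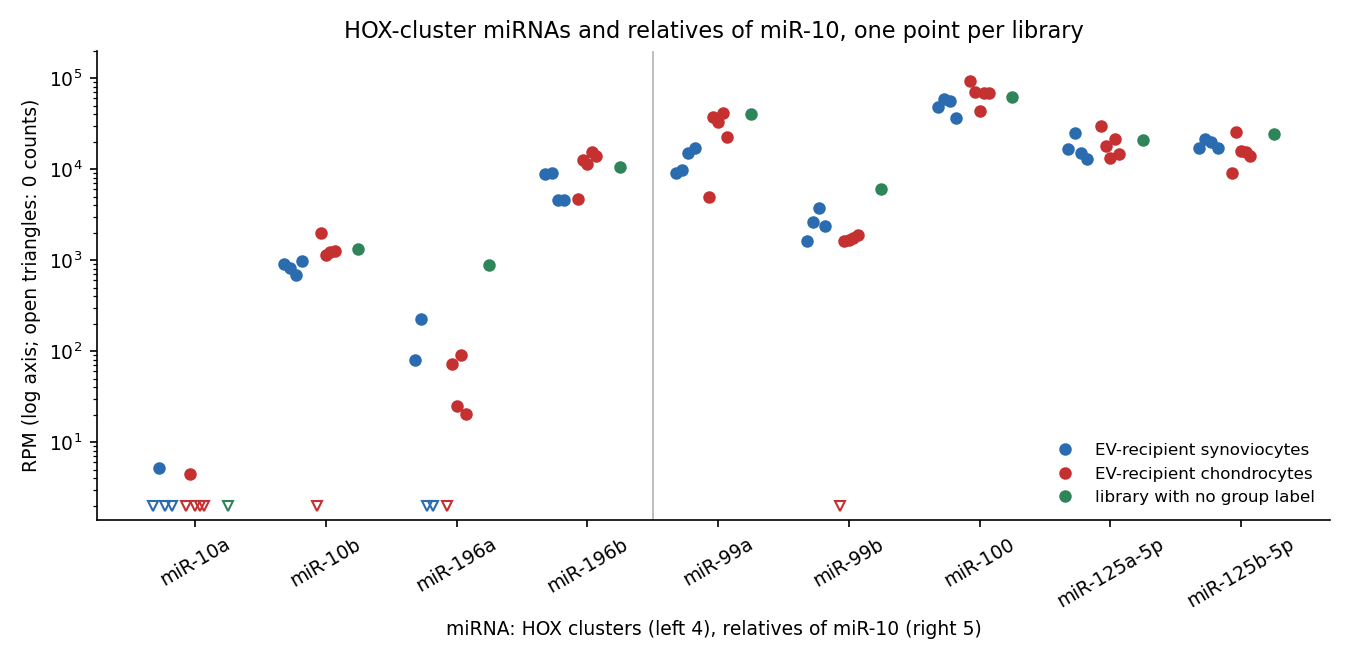
Level in RPM (vertical axis, log scale) of the 4 counted HOX-cluster miRNAs and 5 relatives of miR-10 (horizontal axis), with 1 point for each library, EV-recipient synoviocytes in blue, EV-recipient chondrocytes in red and the library with no group label in green. Open triangles mark libraries with 0 counts; eca-miR-10a is at 0 in 8 of 10 libraries, and the library with no group label is highest for eca-miR-196a at 885 RPM.

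**Figure D4:**
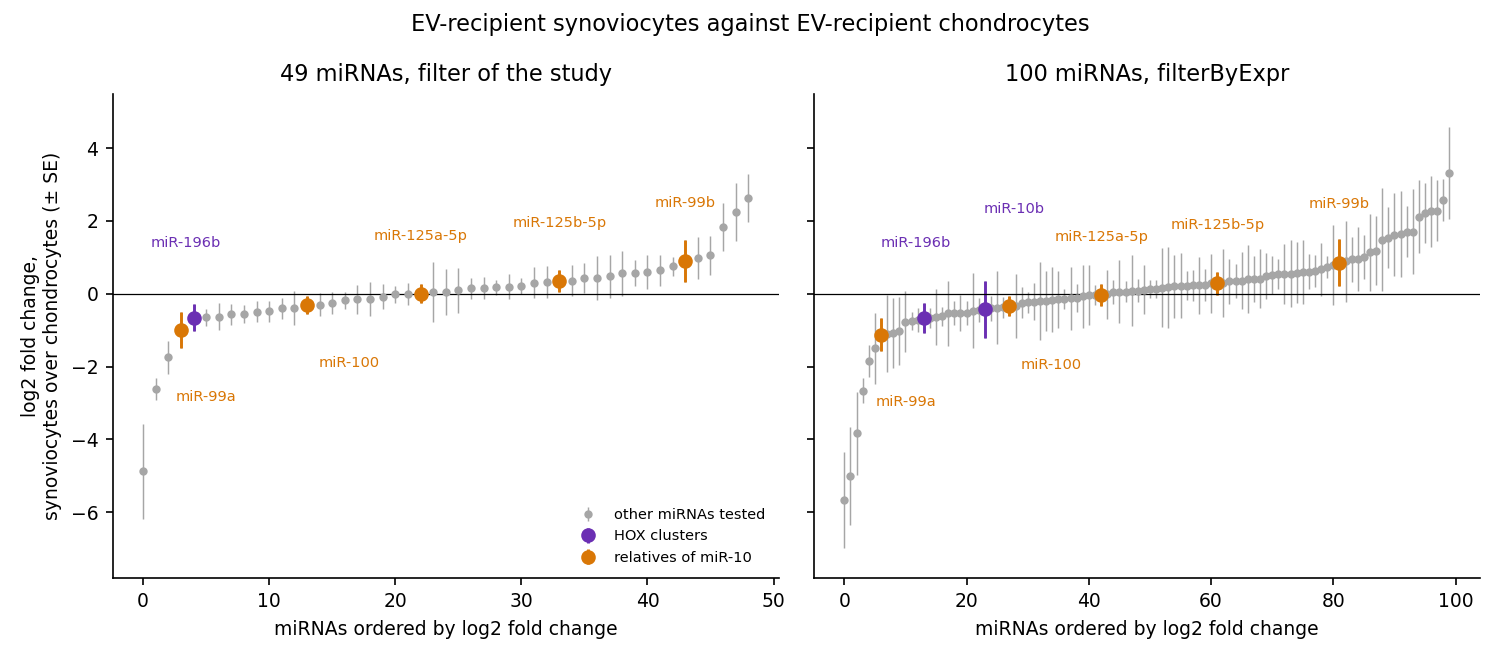
Log2 fold change of EV-recipient synoviocytes over EV-recipient chondrocytes (vertical axis, points, with standard error as bars) for the 49 miRNAs that passed the filter of the study (left) and the 100 kept by filterByExpr (right), ordered by fold change, with HOX-cluster miRNAs in purple and relatives of miR-10 in orange. eca-miR-196b lies at -0.66 on the left and eca-miR-10b at -0.42 on the right, and the relatives lie on both sides of 0.

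The spread of eca-miR-196b between libraries was carried by 1 library in EV-recipient chondrocytes. In EV-recipient synoviocytes, replicates 1 and 2 stood against replicates 3 and 4. The coefficient of variation of eca-miR-196b was 37.0% in EV-recipient synoviocytes, beside a median of 29.2% over the 49 miRNAs tested, and 36 of them varied less. In EV-recipient chondrocytes it was 36.0%, beside a median of 38.1%. Without EV-recipient chondrocyte replicate 1 it was 13.8%, beside a median of 29.5%, and 6 of the 49 varied less.

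Likeness of pattern was measured as Pearson's r of log2(RPM + 10) across the 9 labelled libraries, against each of the miRNAs that passed the filter of the study, and is given as a description. Depth differs between these libraries for all miRNAs at once. Of 48 miRNAs, those most like eca-miR-196b were eca-miR-31 (r = 0.88, Spearman's rho = 0.81), eca-miR-23b (r = 0.69, rho = 0.65) and eca-miR-99a (r = 0.67, rho = 0.68). Without EV-recipient chondrocyte replicate 1 these r were 0.86, 0.69 and 0.55. The median r over the 48 was 0.17 with all 9 libraries. eca-miR-31 averaged 38.4 ± 76.8 RPM (SD, n = 4) in EV-recipient synoviocytes and 2125 ± 1760 RPM (SD, n = 5) in EV-recipient chondrocytes. Its r thus rested partly on synoviocyte values at the pseudocount of 10 RPM. For eca-miR-10b the highest r belonged to eca-miR-28-3p, eca-miR-214 and eca-miR-1307, at 0.99, 0.97 and 0.96. They rested on the library at 0, since they were 0.56, -0.22 and 0.089 without it. eca-miR-10b and eca-miR-196b had r = 0.56 and rho = 0.73 with all 9 libraries and r = 0.66 without that library. eca-miR-196b ranked 14 of 49 in likeness to eca-miR-10b, where the median r was 0.0039. The relative eca-miR-99a ranked 12, with r = 0.75 and rho = 0.85, and with r = 0.74 without that library.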

How the data were processed

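Small RNA was sequenced after 5-EU capture from 10 recipient cultures, which gave 9 labelled libraries and the library with no group label. The authors ran the miND pipeline adapted to horse, with FastQC 0.11.9, MultiQC 1.10, cutadapt 3.3, Bowtie 1.3.0 and miRDeep2, and mapped reads to EquCab 3.0 and then to horse miRBase entries. The authors deposited raw counts and RPM for 239 miRNAs. The RPM deposited by the authors match the counts divided by library miRNA totals to within 0.0472%, spike-in calibrators left out.

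The counts of the 9 labelled libraries were fitted in edgeR 4.0.16 (R 4.3.3) with TMM factors, the quasi-likelihood test and Benjamini-Hochberg adjustment over every miRNA tested. The filter of the study kept miRNAs that reached, in at least 2 libraries, the RPM that 10 counts make in the library with the lowest total. Standard errors are the fold change over the square root of F. The fit was tested on simulated data. Alternatives covered normalization, DESeq2 1.42.0, limma 3.58.1, filters, a replicate block and each library left out. Exact permutation tests ran in Python 3.11.15. No 2 replicates of a group were alike within counting noise (smallest chi-square per degree of freedom 11.5).

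Named miRNAs were the members, the HOX-cluster and miR-10 relative lists, the 3 most like each member and leading markers. The members and lists were chosen with earlier results of these data known. Lists for endothelium, epithelium, muscle and liver summed to at most 93.0, 1399, 124 and 470 RPM in any labelled library.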

Additional observations from a re-analysis of the deposited data

Results flagged for a closer look

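In EV-recipient chondrocytes, eca-miR-99b, a relative of miR-10, was at 0 RPM in replicate 1 while the other 4 libraries lay between 1640 and 1907 RPM. It was the only 1 of 26 sets of values examined that passed Dixon's outlier test, and chance alone gives about 1 such set in 20. That test sets the gap between an extreme library and its neighbour against the range, here at a ratio of 0.86. The low values of eca-miR-196b and eca-miR-10b in the same replicate did not pass it. The 0 of 4891 counts allows up to 613 RPM by the floor.

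In the library with no group label, which no comparison used, 96 of the 239 miRNAs were counted. Among them were HOX-cluster miRNAs above the floor of 3 counts (148 RPM). They were eca-miR-10b at 1328 RPM, eca-miR-196a at 885 RPM and eca-miR-196b at 10576 RPM.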

How the results depend on the processing

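eca-miR-196b kept a negative log2 fold change and an adjusted p over 0.05 under all 20 alternatives of the fit (adjusted p from 0.0782 to 0.997), and ran from -0.89 to -0.51 when each library was left out. Its unadjusted p was under 0.05 in 2 of them, with library size alone (0.0488) and without EV-recipient chondrocyte replicate 1 (0.00965). Library size alone moved the median fold change of the 49 miRNAs to -0.070 from 0.061, and relative to that median eca-miR-196b stood at -0.72 with either. eca-miR-10b ran from -0.67 to -0.14 with each library left out, and was positive in limma with a pseudocount of 1 RPM (1.38) or 10 RPM (0.72), where its library at 0 takes the pseudocount. Its adjusted p lay between 0.583 and 0.997, and eca-miR-10a gave no value.

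miRNAs at an unadjusted p under 0.05 numbered 9, and 0 with spike-in counts as library size, 44 with no filter, 17 with filterByExpr and 7 to 18 with each library left out (18 without EV-recipient chondrocyte replicate 1, 16 without EV-recipient synoviocyte replicate 4). Those at an adjusted p under 0.05 numbered 4, and 0 with spike-in counts, 1 with limma at either pseudocount, 14 with no filter and 1 to 8 with each library left out (8 without EV-recipient chondrocyte replicate 1, 2 without EV-recipient synoviocyte replicate 2, 1 without EV-recipient synoviocyte replicate 3 or any of EV-recipient chondrocyte replicates 2 to 5). The number tested was 239 with no filter, 100 with filterByExpr and 81 without EV-recipient chondrocyte replicate 1, whose removal also lowered the RPM minimum, so that 2 choices changed there at once. Otherwise the cause was not tested. miRNAs whose groups did not overlap numbered 17 of 100 without EV-recipient chondrocyte replicate 1, an alternative chosen after seeing the data, and 11 with it.

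Same-numbered libraries correlated at -0.087, 0.11, -0.40 and -0.025 in their deviations from group means. This gave no sign that replicate numbers in the titles pair the libraries, though so few values cannot exclude it. A replicate block over replicates 1 to 4 left 5 miRNAs at an unadjusted and 1 at an adjusted p under 0.05, with eca-miR-196b at -0.54 and eca-miR-10b at -0.078.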

Other observations

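Spike-in calibrators were added in equal volume to each sample before library preparation. Set against them, the recovered amount of the members varied far more between libraries than their RPM did. eca-miR-196b had 21860, 8467, 1104 and 288 counts per 1000000 spike-in counts in EV-recipient synoviocytes and 63.0, 29392, 3512, 22481 and 5298 in EV-recipient chondrocytes. eca-miR-10b had 2262, 761, 163 and 62.8 in EV-recipient synoviocytes and 0, 4714, 352, 1775 and 479 in EV-recipient chondrocytes. The order of the libraries followed their miRNA totals within each group, and the groups overlapped. With spike-in counts as library size, the log2 fold change of eca-miR-196b was -0.62 with a standard error of 1.57 (edgeR, adjusted p = 0.997).

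The library with no group label lay above all 4 EV-recipient synoviocyte libraries for 3 of the 4 counted HOX-cluster miRNAs and 4 of the 5 relatives of miR-10. It did so for 22 of the 49 miRNAs that passed the filter of the study (44.9%) and for 37 of the 100 kept by filterByExpr (37%). Among the relatives, eca-miR-99a stood there at 39990 RPM and eca-miR-99b at 6001 RPM, against at most 17258 and 3781 RPM in EV-recipient synoviocytes. Cell type markers differed with it: the arms of the cartilage miRNA miR-140 summed to 787 RPM, against at most 182 RPM in EV-recipient synoviocytes, and the mesenchymal and fibroblast list to 213773 RPM, against at least 324029 RPM, with eca-miR-21 at 173979 RPM against at least 267005 RPM. eca-miR-143 of that list was also lower, at 6149 RPM against at least 11187 RPM. Other members of the list lay above all EV-recipient synoviocyte libraries: eca-miR-199a-5p at 20315 RPM, eca-miR-199a-3p at 7624 RPM and eca-miR-214 at 5657 RPM. In EV-recipient synoviocytes these reached at most 10378, 6142 and 4493 RPM. eca-miR-145 lay within the range of those libraries. The part of these markers in the levels of the HOX-cluster miRNAs and relatives was not tested.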
